A study of Mus musculus with 20 samples.

Results

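The proteasome subunit genes were described in the calf muscle gastrocnemius of 20 C57BL/6 mice. Members were the protein-coding genes whose symbols begin with Psma, Psmb, Psmc or Psmd followed by a digit, without the immune subunits Psmb8 and Psmb9. The rule gave 37 genes of the 55401 in the count matrix, spread over 16 chromosomes. It used symbols only and no measured value. Of these, 35 had enough counts to be tested. Psma8, a subunit of the testis, had 11 counts in all 20 mice together and no more than 2 in a single mouse, and Psmb11, a subunit of the thymus, had 0 counts, so neither was tested. Psmc3ip, whose symbol begins in the same way, encodes a meiotic protein and was not a member. Its log2 fold change in HK-treated over untreated mice was -0.07 (SE 0.168, edgeR quasi-likelihood test, adjusted p = 0.954).

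Of the mice, 10 drank water with HK, a Salvia haenkei extract rich in polyphenols, at 0.5 mg per kg per day from 20 months of age, and the other 10 were untreated. Both groups were sampled at 24 months, after 4 months of treatment in the HK group, and each held 5 males and 5 females. The libraries were made after removal of ribosomal RNA and came from 2 experimental batches, with 8 mice in batch 1 and 12 in batch 2, and each batch held both sexes and both treatments. Young mice were not analysed here.

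The proteasome is the large protease that degrades proteins tagged with ubiquitin, and in skeletal muscle it carries out much of the turnover of the contractile proteins. Its core is a barrel of α rings, which form the gate, and β rings, which hold the cutting sites. A cap sits on the barrel, with a ring of ATPases that unfold the substrate and non-ATPase subunits that bind and remove ubiquitin. Among the members, 7 encode the α ring, 7 the β ring, 6 the ATPases and 11 the non-ATPase subunits. Psmd5, Psmd9 and Psmd10 encode chaperones that assemble the base of the cap and leave it afterwards. Psmb10 is the immune form of a β subunit and, unlike Psmb8 and Psmb9, was kept by the rule.

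Libraries held 13900180 to 30469644 counts. Counts differed between mice of like treatment, sex and batch beyond sampling noise (chi-square divided by its degrees of freedom, 8.22 to 52.1), and each mouse was kept as a replicate. Fast fibre genes, which mark this muscle, summed to between 105690 and 154720 CPM (counts scaled by edgeR to the library size), slow fibre genes to between 542 and 5183 CPM and macrophage genes to between 14.04 and 169 CPM. Untreated female 3 stood apart for the subunit genes and is described after the comparisons. The main results that rest on it are given with and without it. In whole muscle, fewer cells of a type and less RNA per cell cannot be told apart.

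Most subunit genes were expressed at levels well within 1 order of magnitude of each other, and the assembly chaperones were far below them. Levels were compared per length, as CPM per kilobase of merged exon, averaged over 20 mice. The highest member was the ATPase Psmc5 at 96.0 ± 8.60 (SD, n = 20) CPM per kilobase, and the lowest ATPase was Psmc2 at 27.4 ± 2.18. In the α ring the levels ran from 20.3 ± 2.22 for Psma3 to 93.7 ± 6.86 for Psma6. Psmc5 and Psma6 differed by less than their spread. The β ring ran from 21.6 ± 2.30 CPM per kilobase for Psmb3 to 63.9 ± 5.54 for Psmb6, and the non-ATPase subunits from 18.2 ± 2.41 for Psmd11 to 78.3 ± 8.58 for Psmd2, a large scaffold subunit of the cap. Of the 3 catalytic subunits, Psmb6, the caspase-like subunit, and Psmb7, the trypsin-like subunit at 61.3 ± 3.75, differed by less than their spread, and Psmb5, the chymotrypsin-like subunit, was at 36.7 ± 4.60. The chaperones were at 2.82 ± 0.214 CPM per kilobase for Psmd5, 2.62 ± 0.264 for Psmd9 and 1.97 ± 0.235 for Psmd10. Psmb10 was at 4.77 ± 0.899. All 7 α, 7 β, 6 ATPase and 11 non-ATPase genes were above the 88th percentile of the genes tested, and the chaperones were between the 45th and the 54th.

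Levels per length depend on the gene model. With the longest annotated transcript in place of merged exons, Psmb6 was at 124 CPM per kilobase, Psmc3 at 128 and Psmc5 at 96.0, so the order within a class is not fixed by these data. The chaperones and Psmb10 stayed below the ring and cap subunits under both gene models. They were at 1.97 to 4.77 against at least 18.2 CPM per kilobase with merged exons, and at 2.02 to 7.21 against at least 24.5 with the longest transcript.

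**Figure D1:**
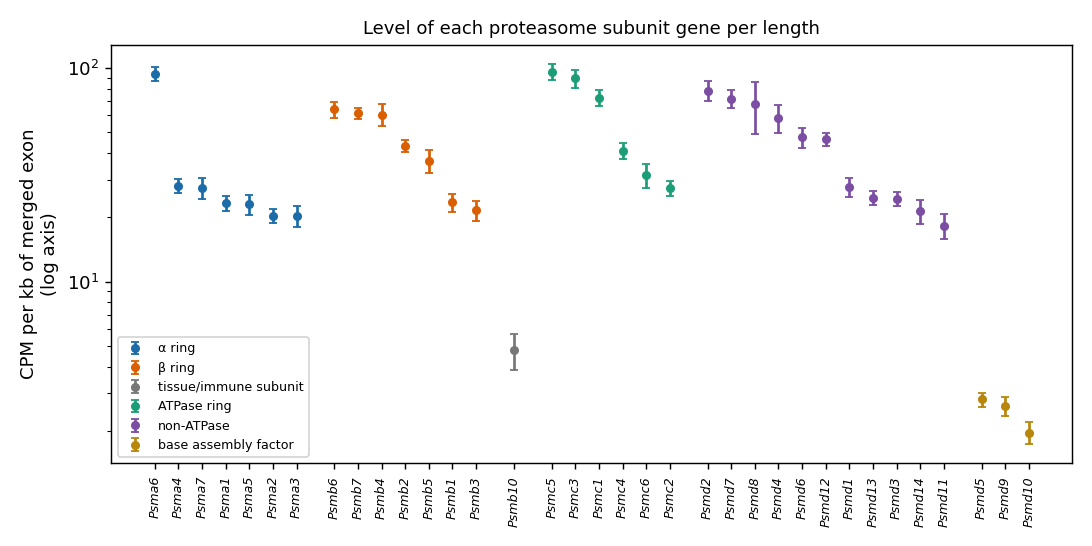
Mean CPM per kilobase of merged exon (log axis) of the 35 subunit genes tested, grouped by class, with bars for the SD over 20 mice. The ring and cap subunits lie between 18.2 and 96.0, and Psmb10 (4.77) and the chaperones Psmd5, Psmd9 and Psmd10 (1.97 to 2.82) lie below them.

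The promoters of the members were searched for 3 short motifs, each on both strands of a window of 300 bases, from 250 before to 50 after the start of the gene (RefSeq, GRCm38.p6). Windows were found for 30 of the 37 members, 32 windows in all. The antioxidant response element, written TGACNNNGC, is the element bound by Nfe2l1 and Nfe2l2, and Nfe2l1 is known to raise proteasome genes when proteasome activity falls. It was present in 5 of the 32 windows (15.6%), against 12.4% of all 32851 windows. The CCAAT box bound by NF-Y was in 12 of the 32 windows (37.5%), against 37.4% of all windows, and the forkhead motif GTAAACA was in none, against 3.65%. No other motif was searched. The 5 matches to the antioxidant response element are shown with up to 20 bases on either side, 5′ to 3′ on the strand of the gene. They are shown because they include Psmb5 and Psmb6 and, in Psmd9, the member with the highest fold change after HK, which did not pass the test. No window was found for Psmb7, the other catalytic subunit, so it was not searched. Capitals mark the match.
Psmb5, chr14:54618014-54618062, minus strand: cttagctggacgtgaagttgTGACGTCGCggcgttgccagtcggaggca
Psmb6, chr11:70525328-70525376, plus strand: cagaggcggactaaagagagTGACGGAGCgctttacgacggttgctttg
Psmd9, chr5:123228139-123228187, plus strand: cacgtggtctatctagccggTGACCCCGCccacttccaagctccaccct
Psmc6, chr14:45329577-45329625, plus strand: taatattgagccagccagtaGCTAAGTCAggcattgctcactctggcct
Psmd12, chr11:107479278-107479309, plus strand: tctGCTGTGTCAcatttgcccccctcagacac
The match was on the strand of the gene in Psmb5, Psmb6 and Psmd9, with its centre 43, 5 and 27 bases before the start, and on the opposite strand in Psmc6 and Psmd12, 223 and 243 bases before it. A match to letters is not a measured site of binding.

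The first comparison asked whether HK treatment changed the subunit genes. None of the 35 passed the test, and the differences were small. Between HK-treated and untreated mice, 13 members were higher and 22 lower, and their median log2 fold change was -0.01. That of the 13626 genes tested was 0.0024. The fold changes of the members ran from -0.20 for Psmb10 to 0.08 for Psmd9 on the log2 scale. With edgeR's quasi-likelihood test, adjusted for batch and sex, 0 members had an adjusted p under 0.05, and the background was 0% of all genes. DESeq2 and limma voom also called 0 members.

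The intervals of these differences were narrow. For 34 of the 35 members the 95% interval of the fold change lay within 1.25-fold in either direction, which was so for 55.5% of all genes tested. Psmb10 was the exception. The median SE of the members' log2 fold changes was 0.0569, against 0.0971 over all genes. Among the classes, the ATPases moved least, from -0.02 to 0.02 on the log2 scale, with 1 of 6 higher. The β ring ran from -0.03 to 0.07 with 3 of 7 higher, the α ring from -0.04 to 0.07 with 3 of 7 higher, and the non-ATPase subunits from -0.07 to 0.03 with 4 of 11 higher.

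The catalytic subunits differed between the groups by less than the spread between mice. Psmb5 was between 26.4 and 41.5 CPM after HK (median 32.2) and between 26.9 and 42.4 in untreated mice (median 31.8). Its log2 fold change was -0.0040 (SE 0.0584, 95% interval -0.13 to 0.12). Psmb6 was between 107 and 144 CPM after HK, with a median of 115, and between 108 and 138 without it, with a median of 117. Psmb7 was between 192 and 234 CPM after HK, with a median of 207, and between 197 and 224 without it, with a median of 205. The fold changes of Psmb6 and Psmb7 were -0.01 and 0.02 on the log2 scale, with 95% intervals from -0.11 to 0.09 and from -0.07 to 0.11. The groups overlapped for all 3 genes.

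The members with the lowest p in either direction were Psma1, Psmd9 and Psmb4 among those higher after HK and Psmb10, Psmd5 and Psmd13 among those lower. Psma1, of the α ring, was between 62.1 and 76.5 CPM after HK (median 71.7) and between 55.8 and 73.7 in untreated mice (median 67.7). Psmd9 was between 16.8 and 23.4 CPM after HK (median 19.4) and between 14.4 and 20.5 in untreated mice (median 18.6). For Psmb4, of the β ring, the range was 101 to 150 CPM after HK (median 120) and 91.5 to 131 in untreated mice (median 118). The log2 fold changes of these 3 genes were 0.07, 0.08 and 0.07, with adjusted p = 0.832, 0.839 and 0.889 (edgeR). Leaving out HK male 5 alone gave 0.03 for Psmb4 and 0.05 for Psmd9. All 3 overlapped between the groups. An unadjusted p under 0.05 was found for 0 members higher after HK, against 2.78% of all genes.

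Psmd5 was between 16.6 and 21.8 CPM after HK (median 20.4) and between 19.3 and 22.8 in untreated mice (median 20.9). Psmd13, of the lid of the cap, was between 74.4 and 93.8 CPM after HK (median 81.2) and between 75.7 and 97.7 in untreated mice (median 83.6). Their log2 fold changes were -0.09 (adjusted p = 0.807) and -0.05 (adjusted p = 0.878, edgeR), and that of Psmd13 was -0.02 when untreated female 3 was left out. The exons of Psmd13 share 342 bases with Sirt3 on the other strand, and those of Psmd9 share 1849 with the long noncoding RNA Gm26745. Whether counting used strand is not given in the sources used here, and reads in these stretches could have come from either gene.

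Psmb10, the immune form of the trypsin-like subunit (chr8:105935735-105938444, GRCm38, minus strand), had the largest difference of the members after HK, and it did not pass the test. In HK-treated mice it was between 6.34 and 10.4 CPM with a median of 7.01, and in untreated mice between 6.86 and 12.04 with a median of 8.62. Its log2 fold change was -0.20 (SE 0.0859, 95% interval -0.38 to -0.02, unadjusted p = 0.031, adjusted p = 0.795, edgeR). It was the only member lower after HK at an unadjusted p under 0.05, which 3.35% of all genes reached in that direction. The value was -0.19 in batch 1 and -0.21 in batch 2, and it was -0.24 without untreated female 3.

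Psmb8 and Psmb9, which encode the other immune subunits, had fold changes of the opposite sign over all mice, and neither passed the test. Psmb8 had a log2 fold change of 0.09 (SE 0.138, adjusted p = 0.922) and Psmb9 of 0.13 (SE 0.246, adjusted p = 0.945, edgeR). All 3 were low, with Psmb8 between 2.13 and 5.67 CPM and Psmb9 between 0.515 and 3.31 CPM over the 20 mice. Macrophage genes, from cells that express the immune subunits, were lower after HK for 7 of 7 genes (median log2 fold change -0.29), and none passed the test. Their summed level was between 14.04 and 129 CPM in HK-treated and between 17.8 and 169 CPM in untreated mice, and 0 of the 7 were at 0 in either group. Other cell markers also differed in 1 direction, with none past the test. Slow fibre genes were lower after HK for 6 of 6 genes (median -0.72, 4 at an unadjusted p under 0.05), with sums of 542 to 2834 CPM in HK-treated and 603 to 5183 CPM in untreated mice. Endothelial genes were lower for 4 of 4 (median -0.255, 1 at an unadjusted p under 0.05), with sums of 54.4 to 173 CPM after HK and 100.3 to 178 CPM without it. Fibro-adipogenic genes were lower for 4 of 4 (median -0.21), with sums of 124 to 592 CPM after HK and 205 to 684 CPM without it, and blood genes were higher for 4 of 4 (median 0.52, 1 at an unadjusted p under 0.05), with sums of 55.5 to 388 CPM after HK and 28.7 to 258 CPM without it. None of these genes was at 0 in all mice of a group. The part of these cells in the levels of Psmb10 and of the other members was not tested.

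**Figure D2:**
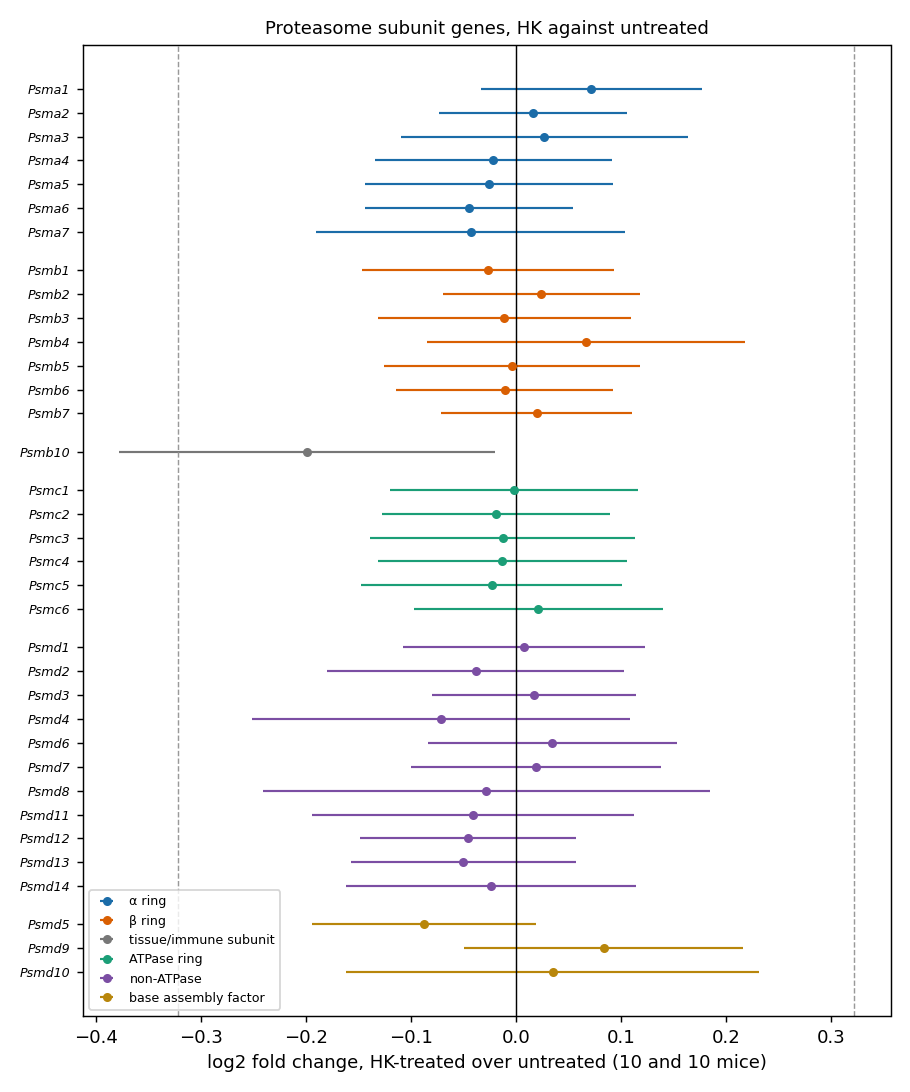
Log2 fold change of each of the 35 subunit genes tested in 10 HK-treated over 10 untreated mice, with bars for the 95% interval, coloured by class, and dashed lines at 1.25-fold in either direction. All intervals but that of Psmb10 lie between the dashed lines, and all but that of Psmb10 include 0.

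Whether the HK difference depended on sex or on batch was tested with interaction terms. No member passed either test, and none had an unadjusted p under 0.05 (edgeR). Over all genes, 3.49% reached an unadjusted p under 0.05 for the interaction with sex and 3% for that with batch, and 0% had an adjusted p under 0.05 in either. DESeq2 and limma voom called 0 members. The intervals were wider than for the main comparison, with a median SE over the members of 0.117 and 0.119.

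For the interaction with sex, Psmb10 had the lowest p. Untreated males 1 to 5 had 8.29, 7.80, 10.4, 12.04 and 9.25 CPM, and HK-treated males had 6.88, 6.75, 6.55, 7.14 and 10.4 CPM. Of the 5 HK-treated males, 4 were below all untreated males. Untreated females had 6.86, 7.49, 6.98, 9.05 and 8.96 CPM and HK-treated females 6.34, 6.71, 7.83, 8.50 and 8.46 CPM, and these overlapped. The log2 fold change was -0.34 in males alone (adjusted p = 0.674) and -0.07 in females alone, and the difference between the sexes was -0.27 (SE 0.165, unadjusted p = 0.114, adjusted p = 0.998, edgeR). Psmb5 came next, with a difference of -0.14 (SE 0.116, adjusted p = 0.998).

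The HK difference of Psmb9, which is not a member, had opposite signs in the sexes without passing the test, and is given after its value was seen. Psmb9 was between 0.515 and 2.53 CPM in HK-treated males (median 1.51) and between 1.47 and 2.81 in untreated males (median 2.16). In HK-treated females it was between 1.75 and 3.31 CPM (median 2.43) and in untreated females between 1.16 and 1.85 (median 1.45). The male difference minus the female one was -1.39 on the log2 scale (SE 0.390, unadjusted p = 0.00207, adjusted p = 0.998, edgeR). For Psmb8 it was -0.40 (SE 0.267, adjusted p = 0.998).

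For the interaction with batch, Psmd11, a scaffold subunit of the lid, had the lowest p. The HK difference in batch 2 minus that in batch 1 was -0.28 on the log2 scale (SE 0.141, unadjusted p = 0.0624, adjusted p = 1, edgeR). In batch 1, untreated mice had 109, 110, 99.97 and 99.5 CPM and HK-treated mice 115, 122, 109 and 113 CPM. In batch 2, untreated mice had between 108 and 170 CPM, where the highest was untreated female 3, and HK-treated mice between 107 and 127. Without untreated female 3 the difference was -0.18. Psma4, of the α ring, was next with -0.12 (SE 0.111, adjusted p = 1).

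Males and females differed in 1 member. Psmd8 (chr7:29174188-29180701, GRCm38, minus strand), a lid subunit which joins the lid late in its assembly, was higher in males. Untreated males had 247, 258, 239, 276 and 236 CPM, and HK-treated males had 310, 227, 226, 264 and 240 CPM. Untreated females had 150, 143, 258, 136 and 141 CPM, and HK-treated females had 154, 141, 195, 147 and 148 CPM. The only female within the range of the males was untreated female 3.

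Psmd8 was 1.57-fold higher in males, with a log2 fold change of 0.65 (SE 0.103, 95% interval 0.44 to 0.86, adjusted p = 0.000165, edgeR's quasi-likelihood test, n = 10 per sex). The background was 8.79% of all genes higher and 7.33% lower in males at an adjusted p under 0.05, and 0 members were lower. In batch 1 alone the log2 fold change was 0.82 (adjusted p = 0.000757) and in batch 2 alone 0.52 (adjusted p = 0.0459). In HK-treated mice alone it was 0.69 (adjusted p = 0.00532), and in untreated mice alone 0.61, where it did not pass (adjusted p = 0.0677). Without untreated female 3 it was 0.76 (SE 0.0688, adjusted p = 2.49e-07). All 10 males were then above all 9 females, which was so for 1.2% of all genes. Untreated female 3 was singled out by its high values of the subunit genes, so the results without it are descriptions. With all mice, 0 members had every male above every female, against 0.939% of all genes. The HK difference of Psmd8 was -0.03 on the log2 scale (SE 0.102), and its interaction with sex was 0.09 (SE 0.209).

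No gene that overlaps the exons of Psmd8 or shares a near-identical stretch with it was found in the annotation. Its promoter window held none of the 3 motifs and is given because Psmd8 was the member that differed between the sexes. It is written in lower case throughout, since there was no match to mark.
Psmd8, chr7:29180624-29180923, minus strand: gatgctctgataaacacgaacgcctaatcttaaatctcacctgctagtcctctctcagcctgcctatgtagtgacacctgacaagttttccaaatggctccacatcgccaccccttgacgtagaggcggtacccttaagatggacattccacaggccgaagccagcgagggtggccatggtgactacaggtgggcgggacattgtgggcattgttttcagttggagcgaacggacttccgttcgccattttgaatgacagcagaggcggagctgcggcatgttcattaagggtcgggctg

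**Figure D3:**
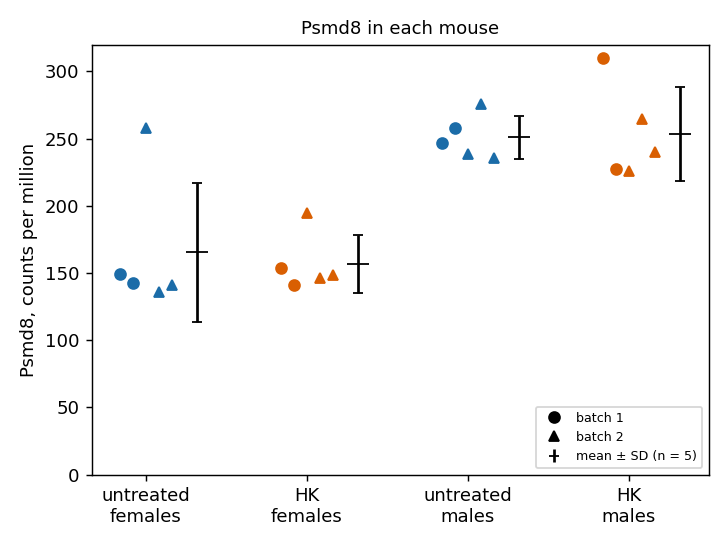
CPM of Psmd8 in each of the 20 mice by treatment and sex, with circles for batch 1, triangles for batch 2 and bars for the mean ± SD of 5 mice. The males lie between 226 and 310 CPM and the females between 136 and 195, except untreated female 3 at 258.

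The other members did not pass the test, and more of them were higher in males than lower. Of the 35, 25 were higher and 10 lower in males, a share of 71.4% higher against 48.6% of all genes. Their median log2 fold change of 0.05 was small and rested on single mice, since it was 0.0097 without untreated female 5 and 0.09 without untreated female 3. All 7 genes of the β ring were higher, with log2 fold changes from 0.06 to 0.15, as were 6 of 7 of the α ring, 7 of 11 non-ATPase genes and 2 of 6 ATPases. Besides Psmd8, an unadjusted p under 0.05 was found for Psmb5, Psma5 and Psmb1, all higher in males. These 4 are to be read against 15.6% of all genes higher and 14.8% lower at that threshold, and 0 members were lower.

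Psmb5 was between 26.4 and 42.4 CPM in males, with a median of 34.6, and between 26.9 and 35.6 in females, with a median of 31.7. The sexes overlapped, and its log2 fold change was 0.15 (SE 0.0584, adjusted p = 0.0948, edgeR). Without HK male 2, the lowest mouse for this gene, it passed (0.18, adjusted p = 0.0321) and 2 members were called, both higher, against 8.67% of all genes higher and 7.09% lower in the same fit of 19 mice. Without untreated female 3, 4 members were called, namely Psmd8, Psma5 (0.17, adjusted p = 0.0256), Psmd7 (0.15, adjusted p = 0.0182) and Psmb1 (0.18, adjusted p = 0.0195). All 4 were higher in males, against 9.34% of all genes higher and 7.05% lower in that fit. Untreated female 3 was the highest of the 20 mice for all 4 genes after adjustment for batch and sex. Leaving out a mouse for its high or low values favours a call, so the calls in both fits of 19 mice are descriptions. Psmc2 and Psmc6, both ATPases, had the lowest p among members lower in males, with log2 fold changes of -0.06 (adjusted p = 0.492) and -0.06 (adjusted p = 0.512). These were -0.0065 and -0.02 when untreated female 3 was left out.

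The levels of cell marker genes differed between the sexes as well. Slow fibre genes were lower in males for 6 of 6 genes, of which 5 passed the test, and their summed level was between 542 and 5183 CPM in males (median 723) and between 1969 and 3546 CPM in females (median 2635). Adipocyte genes were lower in males for 4 of 4 genes, all of which passed, with sums of 73.1 to 181 CPM in males and 96.6 to 290 CPM in females. Macrophage genes were higher in males for 6 of 7 genes, of which 1 passed, with sums of 14.04 to 169 CPM in males and 19.6 to 99.7 CPM in females. Endothelial genes were lower in males for 4 of 4 genes and blood genes higher for 4 of 4, and none of these passed. Fast fibre genes were higher in males for 3 of 6, of which Tnnt3 and Ckm passed. Fibro-adipogenic genes were higher for 2 of 4, and none passed. None of the genes of these lists was at 0 in all mice of a sex, and their part in the level of Psmd8 was not tested.

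The proteins that build, open and feed the proteasome were taken as a list of 34 further genes, all of which were tested. After HK treatment 23 were higher and 11 lower (median log2 fold change 0.02), where 51% of all genes were higher, and none passed the test (lowest adjusted p = 0.795, edgeR). An unadjusted p under 0.05 was found for 2, both higher, against 2.78% of all genes higher and 3.35% lower. The lowest was that of Ubqln1, a shuttle that carries ubiquitin-tagged proteins to the cap, which was between 75.5 and 84.2 CPM after HK (median 79.5) and between 63.7 and 83.3 in untreated mice (median 74.1), with a fold change of 0.11 on the log2 scale (SE 0.0410, unadjusted p = 0.0173). The other was Nfe2l2, the stress-responsive relative of Nfe2l1, with 0.42 (SE 0.174, unadjusted p = 0.0252), which was named after its value was seen. For Nfe2l2 the male difference minus the female one was 0.73 (SE 0.313, unadjusted p = 0.03, adjusted p = 0.998, edgeR). It was also higher in batch 2, by 0.83 on the log2 scale (adjusted p = 0.00152, edgeR). Nfe2l1 had the lowest p among genes lower after HK, with 791 to 1046 CPM (median 951) after HK and 892 to 1151 (median 987) in untreated mice, with a fold change of -0.08 on the log2 scale (SE 0.0501, adjusted p = 0.811).

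Pomp, the chaperone that completes the β ring, had a log2 fold change of -0.04 after HK (SE 0.0597). The activators that replace the cap were at 0.06 for Psme1 (SE 0.0688), -0.06 for Psme2 (SE 0.0583) and 0.05 for Psme4 (SE 0.0766), and adjusted p was at least 0.861 for these 4 genes (edgeR).

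Between the sexes, 3 of the 34 genes passed, all higher in males, a count close to the background of 8.79% of all genes higher and 7.33% lower. Irrespective of the test, 22 were higher and 12 lower. Psmg4, a chaperone of the α ring, was between 3.50 and 5.36 CPM in males (median 3.85) and between 2.46 and 3.72 in females (median 2.76). The ranges met only at their ends, with a log2 fold change of 0.49 (SE 0.106, adjusted p = 0.00349, edgeR). Ubqln4, another shuttle, was between 127 and 153 CPM in males (median 137) and between 108 and 134 CPM in females (median 119), a log2 fold change of 0.19 (SE 0.0474, adjusted p = 0.0102). Psme4 was between 218 and 495 CPM in males and between 249 and 372 in females, a log2 fold change of 0.24 (SE 0.0768, adjusted p = 0.0345). All 5 chaperones of the core were higher in males, with log2 fold changes from 0.12 to 0.49, of which Pomp was at 0.16 (adjusted p = 0.072). Ddi2, the protease that activates Nfe2l1, had the lowest p among those lower in males, at -0.20 (SE 0.0759, adjusted p = 0.0853), and Nfe2l1 was at -0.12 (adjusted p = 0.108).

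More members were called between the batches than between the sexes or treatments. At an adjusted p under 0.05, 3 members were higher in batch 2 and 6 lower, against 18.2% and 19% of all genes (edgeR). Higher were Psmb10 (log2 fold change 0.30, adjusted p = 0.0111), Psmb5 (0.22, adjusted p = 0.0074) and Psmb3 (0.18, adjusted p = 0.0212). Lower were Psmc6 (-0.28, adjusted p = 0.000959), Psmd14 (-0.23, adjusted p = 0.0107), Psmd6, Psmd1, Psma5 and Psma2, the last 4 from -0.18 to -0.15. Both batches hold both treatments and both sexes, and batch was a term in the main fits. Cell markers differed between the batches as well. All 7 macrophage genes passed, higher in batch 2 (median log2 fold change 1.90). So did 4 of 4 blood genes (1.23) and 4 of 4 fibro-adipogenic genes (0.70). Adipocyte genes were higher for 4 of 4, of which 1 passed, and slow fibre genes for 6 of 6, of which none passed. Fast fibre genes were higher for 4 of 6, of which 1 passed, and endothelial genes for 2 of 4, of which none passed. The part of these cells in the levels of the members was not tested.

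The members varied less from mouse to mouse than most genes. After adjustment for batch, sex and treatment, the median SD of their log2 CPM was 0.125, against 0.217 over all genes tested, and the median biological coefficient of variation was 9.74% against 13.5%. In CPM per kilobase, the coefficient of variation over the 20 mice was 6.12% for Psmb7, 6.22% for Psmb2 and 27.3% for Psmd8. The members were also expressed above most genes, and the part of their level in this was not tested.

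From mouse to mouse the members went up and down together. Over the 20 mice and the 595 pairs of members, the median Pearson correlation of log2 CPM, adjusted for batch and sex, was 0.574, with quartiles of 0.351 and 0.718, and 88.9% of the pairs were positive. Over all pairs of genes tested the median was -0.0022. All genes of a mouse share its library and scaling. In batch 1 alone the members' median was 0.360 and in batch 2 alone, which holds untreated female 3, it was 0.659. With untreated female 3 left out of both batches together the median was 0.426, and without any other mouse it was between 0.541 and 0.603. A median for batch 2 without untreated female 3 was not computed, so the batches cannot be compared apart from that mouse.

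Psmb1 followed the mean of the other members most closely, with r = 0.941, and Psmc3 and Psma6 had r = 0.930 and 0.929. The correlation was at or below 0 for 3 members, with r = -0.03 for Psmb10, -0.27 for Psmd9 and -0.11 for Psmd10. Leaving out untreated female 3 gave 0.287, 0.302 and -0.39, and Psmd1 fell from 0.447 to -0.15 without untreated female 3. The 3 chaperones of the base correlated with each other at a median of -0.28, against 0.743 among the ATPases, 0.681 among the non-ATPase subunits, 0.655 in the β ring and 0.629 in the α ring. Without untreated female 3 the median was 0.370 among the non-ATPase subunits, 0.596 among the ATPases, 0.611 in the β ring, 0.562 in the α ring and -0.15 among the chaperones.

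**Figure D4:**
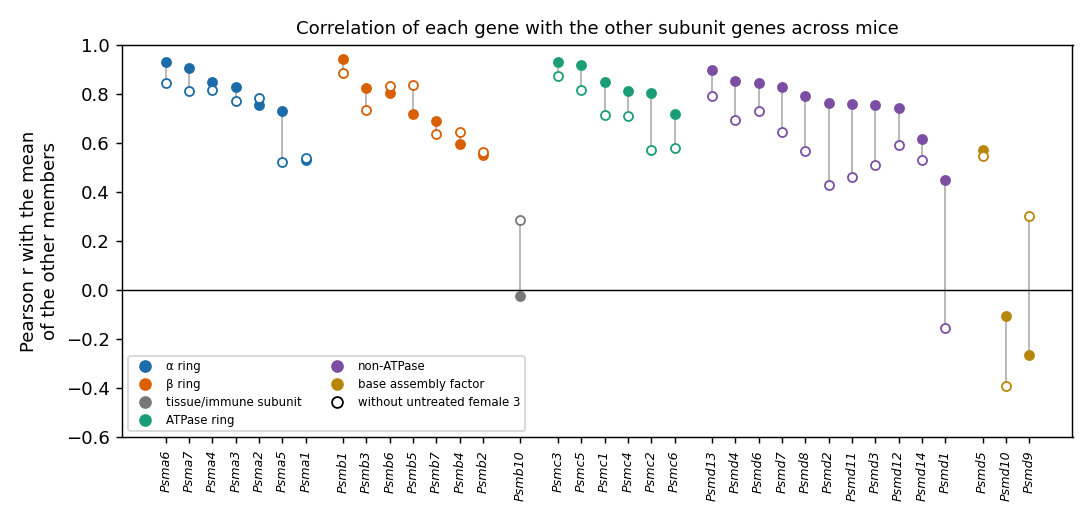
Pearson correlation across mice of each of the 35 subunit genes with the mean of the other members (batch- and sex-adjusted log2 CPM, standardized), with filled points for 20 mice and open points without untreated female 3. Psmb1, at 0.941, is highest, Psmb10, Psmd9 and Psmd10 lie below 0 with all mice, and most non-ATPase genes are lower without untreated female 3.

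Outside the lists, 13512 genes were compared with the mean of the members. Those most like it were Hnrnpab (r = 0.910), which encodes an RNA-binding protein, Tmem38b (0.883), a cation channel of the sarcoplasmic reticulum, Yap1 (0.866), a transcriptional coactivator, Eif5a (0.849), a translation factor, and Ccdc136 (0.844). In the other 19 mice these were 0.859, 0.741, 0.669, 0.814 and 0.644. Of all genes tested outside the members, 1.3% had r above 0.7. On the list of other proteasome and ubiquitin genes, Vcp, the ATPase that extracts tagged proteins, had r = 0.804, and Nfe2l1 and Pomp had 0.646 and 0.641. The lowest on that list was Uba6, an enzyme that activates ubiquitin, with r = -0.66. Without untreated female 3 the 4 values were 0.678, 0.482, 0.605 and -0.36.

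Untreated female 3, a mouse of batch 2, had the highest subunit levels of the 20 mice. It was the highest of all mice in 22 of the 35 members, in log2 CPM adjusted for batch and sex, against 10.8% of all genes. The mean of the members was 6.58 in this mouse on that scale, 0.269 above the median of the others, which lay between 6.20 and 6.42. The members took 0.475% of all its counts, against 0.328% to 0.430% in the other mice. The mouse was noticed after the values were seen, so these are descriptions.

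Most of the genes for which it was highest belong to the cap. After adjustment for batch and sex, untreated female 3 was the highest mouse for 6 of 6 ATPases and 10 of 11 non-ATPase genes. It was highest for 4 of 7 α genes and for 2 of 7 β genes. On the same adjusted scale, against the median of the other mice, Psmd8 was 1.72-fold, Psmd4, a ubiquitin receptor, 1.60-fold, Psmd2 1.45-fold and Psmd11 1.43-fold, whereas Psmb5 was 1.09-fold. Psmb10 was at 0.828 of the median of the others, and Psmd9 at 0.798 and lowest of the 20 mice. In CPM without this adjustment it was not the highest mouse for Psmd8, at 258 against 310 in HK male 1. Nor was it for Psmc6, at 121 against 130 in untreated female 2.

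Among genes that work with the proteasome, the mouse was highest for 8 of 34, against 10.8% of all genes. These were 0 of 5 chaperones of the core, 0 of 5 activators, 0 of 5 attached subunits and enzymes and 2 of 6 shuttles. They were also 2 of 4 genes of the control list, which holds Nfe2l1, and 4 of 9 genes of ubiquitin and its handling. Markers of 3 other cell types lay on 1 side of the median of the other mice, and it was the highest mouse for none of them. The blood genes were above the median of the other mice for 4 of 4 genes, with a median log2 difference of 0.88, the slow fibre genes for 6 of 6 with 0.51, and the fibro-adipogenic genes were below it for 4 of 4 with -0.51. Their sums, at 258, 3546 and 247 CPM, were within the range of the other mice with sexes and treatments pooled. Among females its slow fibre sum was the highest, with HK female 1 next at 2834 CPM. Among untreated mice its blood sum was the highest. Over all genes the median log2 difference was -0.0080. Their part in the levels of the subunit genes was not tested.

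Leaving out untreated female 3 changed the sign of the median log2 fold change of the members after HK, from -0.01 to 0.03, and 0 members were called either way. That median was also 0.02 in batch 1 and -0.04 in batch 2, so it had no fixed sign.

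**Figure D5:**
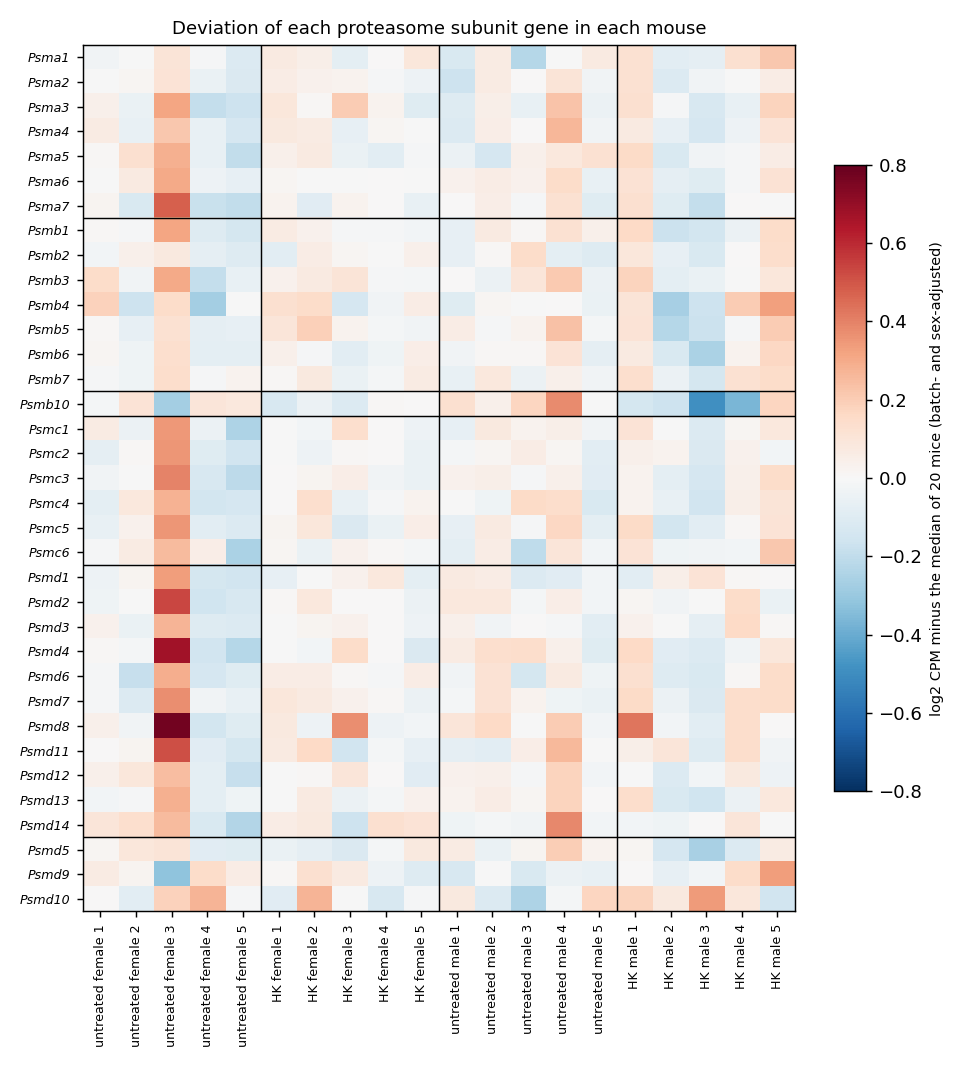
Log2 CPM of the 35 subunit genes (rows, by class) in 20 mice (columns, by treatment and sex) minus the median of the 20 mice, adjusted for batch and sex. Red is above and blue below the median. Untreated female 3 is red in nearly all rows, most in Psmd8 and Psmd4, and blue in Psmb10 and Psmd9.

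Pseudogenes near-identical to a member, none of which overlaps it, held few counts. With at least 95% identity over 250 bases, the highest share was 1.72% of the counts of the member, for a copy of Psmb3, followed by 1.14% for a copy of Psma3. How the counting treated reads that fit several genes is not given in the sources used here. Psmb7 shares 405 exon bases with Nek6, and Psmc3 215 with Slc39a13, both on the other strand.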

How the data were processed

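RNA of 20 gastrocnemius muscles was sequenced after depletion of ribosomal RNA. The authors checked reads with FastQC, aligned them to GRCm38.p6 with the two-pass mode of STAR 2.6.1c, counted GENCODE genes and deposited raw counts per gene, whole numbers with no normalization. For the counting tool and strand, the setting is not given in the sources used here. Groups came from the sample labels and ages from the study's methods.

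The members and gene lists were chosen with earlier results of these data known. Identifiers were named with GENCODE M21, where 55141 of 55401 matched, and the rest held 0.00127% of the counts. The analysis used edgeR 4.0.16 in R 4.3.3 (TMM, filterByExpr, quasi-likelihood test with batch, sex and treatment, 13626 genes, Benjamini-Hochberg adjustment), with DESeq2 1.42.0 and limma 3.58.1 as alternatives. The test was tried on simulated counts for HK against untreated. It recovered 65% of changes of 0.5 and 89.9% of changes of 1 on the log2 scale, and 6.1% of its calls were false. SE is that of the log2 fold change and intervals are 95%. Log2 CPM used a prior count of 2. Near-identical copies were found with blastn 2.17.0. Figures used Python 3.11.15.

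Named members were the 3 with the lowest p in each direction for HK, 2 in each direction for sex, 2 for each interaction, the catalytic subunits, Psmb10, Psma8, Psmb11 and the highest and lowest per length of each class, with Psma5, Psmb1, Psmd7 and others added after their values were seen. The list of other genes held 34 genes, and Paaf1 was not used here. All p-values are two-sided.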

Additional observations from a re-analysis of the deposited data

Results flagged for a closer look

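Within each treatment group of 10 mice, the gap between the most extreme mouse and its nearest neighbour was set against the whole range of the group, for the mean of the members and each of the 35 members tested (72 tests, batch- and sex-adjusted log2 CPM). A gap larger than Dixon's limit was found 10 times, and chance gives about 1 in 20 groups.

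In 9 of the 10, untreated female 3 was the highest untreated mouse. The gap as a share of the range was 0.520 for Psma7, 0.582 for Psmc2, 0.581 for Psmc3, 0.538 for Psmd1, 0.648 for Psmd2, 0.5995 for Psmd3, 0.592 for Psmd4, 0.531 for Psmd7 and 0.619 for Psmd8. In this mouse Psmd2 was at 8.82 on the log2 scale, against 8.37 in the next highest untreated mouse, and Psmd8 was at 8.32 against 7.75. In the HK group, HK male 4 was highest for Psmd3, with a gap of 0.532 of the range (7.06 against 6.94). The genes vary together, so these tests are not independent. No member's HK difference passed a test of a difference between sexes or batches.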

How the results depend on the processing

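No member passed for HK, or for either interaction, under DESeq2 size factors, no filter, DESeq2's Wald test, limma voom or without any 1 mouse, nor for HK in fits without covariates, with a replicate block, in 1 batch or in 1 sex. For sex, 1 member was called with all mice, 0 in untreated mice alone (3 at an unadjusted p under 0.05) and 1 to 4 without any 1 mouse. Without the filter, 5 members differed between batches in place of 9, and 12 did without untreated female 3. The share of all genes was not counted for untreated mice alone, nor for batch without the filter or without untreated female 3. These counts therefore cannot be set against a background. With all mice and the filter, 18.2% of all genes were higher and 19% lower in batch 2. The median level of the members was 28.1 CPM per kilobase and 53.2 with the longest transcript. The median correlation was 0.360 in batch 1, and 0.426 to 0.603 without any 1 mouse, alternatives chosen after seeing the data.

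Fold changes near 0 changed sign. For HK, Psmb5 was at 0.0069 without the filter, 0.0452 in batch 1 and 0.0611 in females, and between -0.0282 and 0.0260 without any 1 mouse. Psmb6 was at 0.0003 without the filter and 0.0037 in batch 1, and between -0.0340 and 0.0162 without any 1 mouse. Psmb7 was at -0.0031 in batch 2 and -0.0138 in females, and Psmd13 at 0.0079 in batch 1. The cause was not tested.

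The deviations of same-numbered HK-treated and untreated mice had r from -0.42 to 0.17, above 0.1 in 4 of 10 pairs, and 6 of 10 were best with their own number. Pairs 1 and 2 had the same r within each sex (0.17 in females and -0.42 in males), so the 10 values are not independent. Whether the numbers paired the mice cannot be decided from these values. With the replicate block, 0 members were called for HK and 1 for sex, Psmd8 at 0.67 (adjusted p = 0.000684, edgeR), and no call changed. Mice are 5 per sex and treatment, and small differences between the sexes in the HK effect were not detectable at the SE given.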
